A study of Mus musculus with 8 samples.

Results

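The genes examined here encode the nuclear subunits of the mitochondrial respiratory chain, measured in liver RNA from OVX mice on HFD+WBM and from OVX mice on HFD. They are the rows of the array table whose annotation names a single gene with a subunit symbol (Nduf followed by a, b, c, s or v and a digit, Sdha to Sdhd, Uqcr, Cyc1, the lettered Cox families and Atp5), and where a gene had several rows, the row with the highest mean stood for it. This gave 80 of the 19938 genes tested: 33 of complex I, 4 of complex II, 9 of complex III, 15 of complex IV, 17 of complex V, and Ndufa4 with its relative Ndufa4l2, which are given apart because Ndufa4 was first placed in complex I and later in complex IV. All 8 mice were female C57B1/6J, ovariectomized at 7 weeks of age, which removes the ovarian source of estrogen. The 4 OVX HFD+WBM mice ate a high fat diet containing white button mushroom (WBM, Agaricus bisporus) for 3 months, and the 4 OVX HFD mice ate the high fat diet without mushroom. The RNA of each mouse was hybridized to an Affymetrix Mouse Gene 1.0 ST array of its own. The diet with mushroom powder also held less corn starch, so the groups differ in both. Both groups share the ovariectomy and the high fat diet, and no mouse with ovaries was analysed here, so the values concern this change of diet within that state only.

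The respiratory chain lies in the inner mitochondrial membrane. Complex I takes electrons from NADH and complex II takes them from succinate, complex III passes them to cytochrome c, complex IV hands them to oxygen, and complex V, the ATP synthase, uses the proton gradient that complexes I, III and IV build. Most subunits are encoded in the nucleus and imported, while a small core of complexes I, III, IV and V is encoded by mitochondrial DNA. In hepatocytes the chain reoxidizes the carriers that fatty acid oxidation reduces.

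The array of HFD replicate 3 stood apart. Its values deviated from those of the remaining arrays by an SD of 0.68 (log2) over genes, and those of each of the other 7 by 0.38 to 0.50. Array medians were 7.11 to 7.19 for HFD+WBM and 7.04 to 7.22 for HFD. The tissue label was checked against 9 measured hepatocyte markers, whose lowest value on any array was 11.50. Their summed level on the linear scale was 108852 to 116291 in HFD+WBM livers and 97459 to 110375 in HFD livers, and none passed p under 0.05. By that rule (limma, before adjustment) 6.9% of all genes were lower in HFD+WBM livers and 4.85% higher, and 49.3% of all genes had estimates below 0. Of 16 Kupffer cell and macrophage markers, 14 were lower in HFD+WBM livers by it and none was higher. Their summed level was 7227 to 10086 in HFD+WBM livers and 10444 to 15265 in HFD livers, so the groups did not overlap. Of 9 stellate cell and matrix markers 4 were lower and none higher, with 8 estimates below 0 and a median log2 fold change of -0.46, and of 10 sinusoidal endothelial markers 3 were lower and none higher, with 10 below 0 and a median of -0.27. Their summed levels overlapped, at 4657 to 6369 in HFD+WBM livers and 5528 to 8389 in HFD livers for the stellate list, and at 5724 to 8194 in HFD+WBM livers and 6632 to 10061 in HFD livers for the endothelial list. The part of these cells in the values below was not tested, and in whole liver RNA fewer cells of a type and less RNA per cell cannot be told apart.

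Most respiratory chain genes had slightly lower values in OVX mice on HFD+WBM, but only 2 of the 80 were lower by the test. The median log2 fold change, HFD+WBM minus HFD, was -0.16 (-10.3% on the linear scale), and 67 of the 80 estimates (83.8%) were below 0, against 49.3% of all genes, whose median was 0.01. Ndufc1 and Ndufa8, both of complex I, had p under 0.05 before adjustment by limma. That is 2.5% of the members, under the background of 6.9% of all genes that were lower by the same rule, and 0 members were higher, where 4.85% of all genes were. No member passed p under 0.05 with a 2-fold change, a rule by which 0.497% of all genes were lower and 0.266% higher. No gene of the whole table, member or not, had a limma adjusted p under 0.05 (0%), and the smallest among members was 0.40. The estimates ranged from -0.37 to 0.42, with standard errors of 0.13 to 0.32. Below, an estimate written with ± is a log2 fold change, HFD+WBM minus HFD, with its limma standard error, and a group average has its SD.

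**Figure D1:**
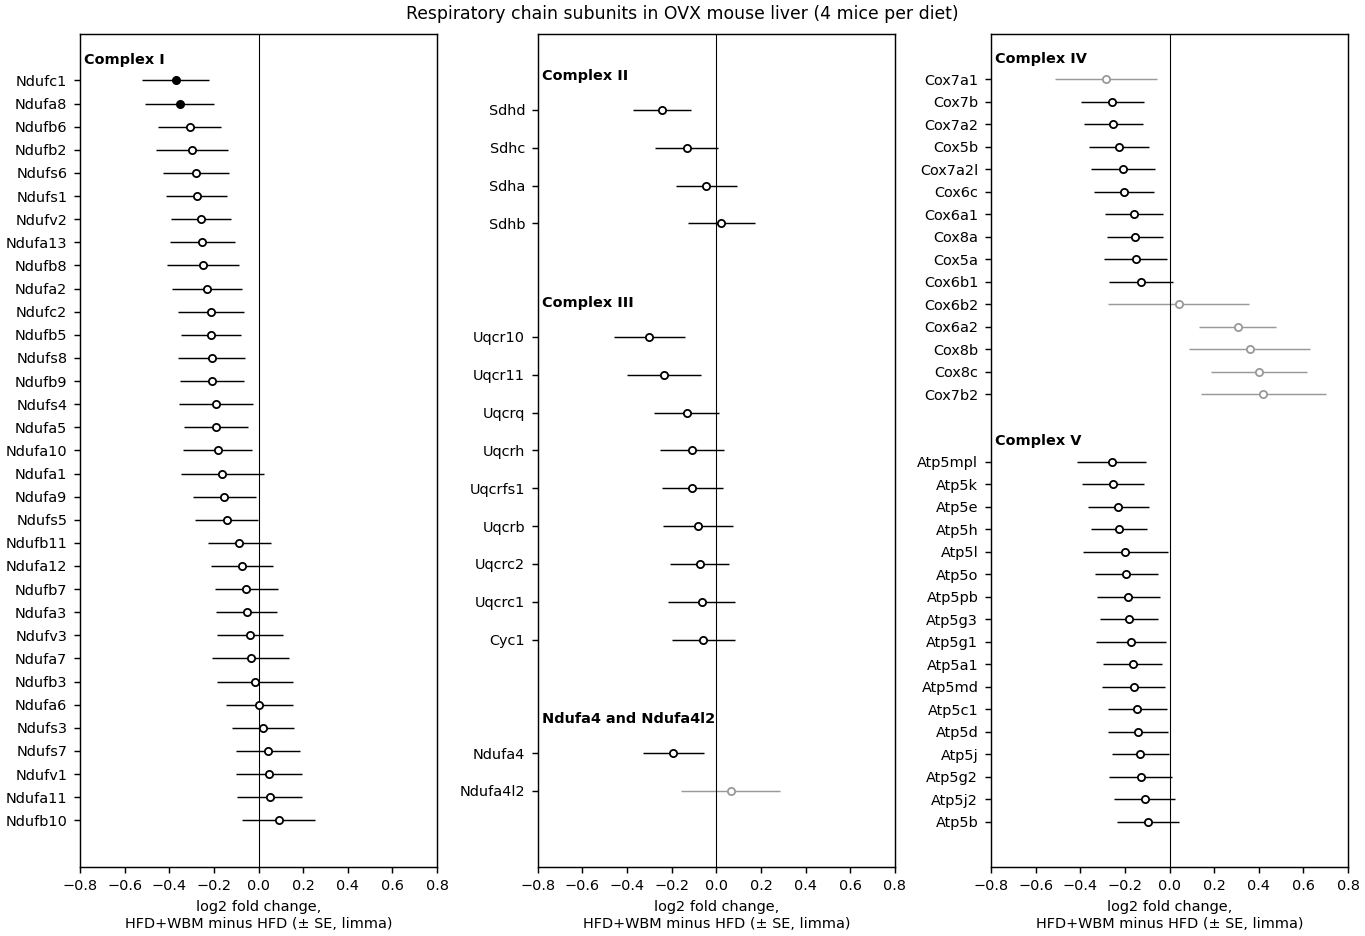
Log2 fold change of each of the 80 genes, HFD+WBM minus HFD, with its standard error from limma (4 OVX mice per diet). Filled points have p under 0.05 before adjustment and grey points are genes in the less bright 50% of all genes tested; all estimates of complexes III and V lie below 0, and the 4 estimates above 0.1 belong to dim isoforms of complex IV.

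The differences were small, and so was the spread between mice. The residual SD of a member within a diet group had a median of 0.13 (log2), against 0.30 for all genes and 0.22 for the brighter 50% of them. Limma with a common prior draws every variance toward a shared value, here an SD of 0.28, so the standard errors of these genes (median 0.14) were wider than those from their own spread alone (median 0.09). The number of calls depended on this choice. An equal-variance test in which each gene keeps its own variance called 22 members lower (27.5%) and 0 higher before adjustment, against 7.66% and 5.36% of all genes. Limma with a prior that changes with signal called 13 members lower (16.2%) and 0 higher, against 8.24% and 5.36%. After adjustment neither called a member, while over all genes the first called 0 (0%) and the second 139 (0.697%).

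All 4 HFD+WBM mice lay below all 4 HFD mice for 17 of the 80 genes (21.2%), where 5.02% of all genes did so. For 0 of the 80 did they all lie above, against 3.21% of all genes. The 17 were Ndufa13, Ndufb6, Ndufc1 and Ndufv2 of complex I, Sdhd of complex II, Cox5b, Cox6c, Cox7a2 and Cox8a of complex IV, Atp5e, Atp5g3, Atp5h, Atp5j, Atp5k, Atp5mpl and Atp5o of complex V, and Ndufa4. All 80 genes were read in the same 8 mice, so they are not 80 independent observations.

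The mice contributed unequally. The mean log2 value of the 80 genes was 10.25, 10.19, 10.20 and 10.25 in HFD+WBM replicates 1 to 4, against 10.28, 10.33, 10.47 and 10.33 in HFD replicates 1 to 4. The groups did not overlap, and HFD replicate 3 was the highest of the 8. It held the highest value of 52 of the 80 genes (65%), against 16.1% of all genes, and the lowest value of 3 (3.75%), against 24.5%. Of the 80 members, 73 lay in the brighter 50% of all genes, which were also raised in HFD replicate 3. Their median deviation from each gene's mean over 8 mice was 0.08 there, the highest of the 8, and that of the 73 members was 0.22. Without this mouse the median log2 fold change over members was -0.12, and 64 estimates (80%) were below 0, against 55.2% of all genes. Limma then called 0 members lower, where 6.42% of all genes were. Leaving out a mouse cannot make separate groups overlap, so the 17 members lower in every mouse had to remain. Their number was still 17 (21.2%), while the share of all genes rose from 5.02% to 6.9%. Members higher in every mouse were then 2 (2.5%), against 5.98% of all genes.

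**Figure D2:**
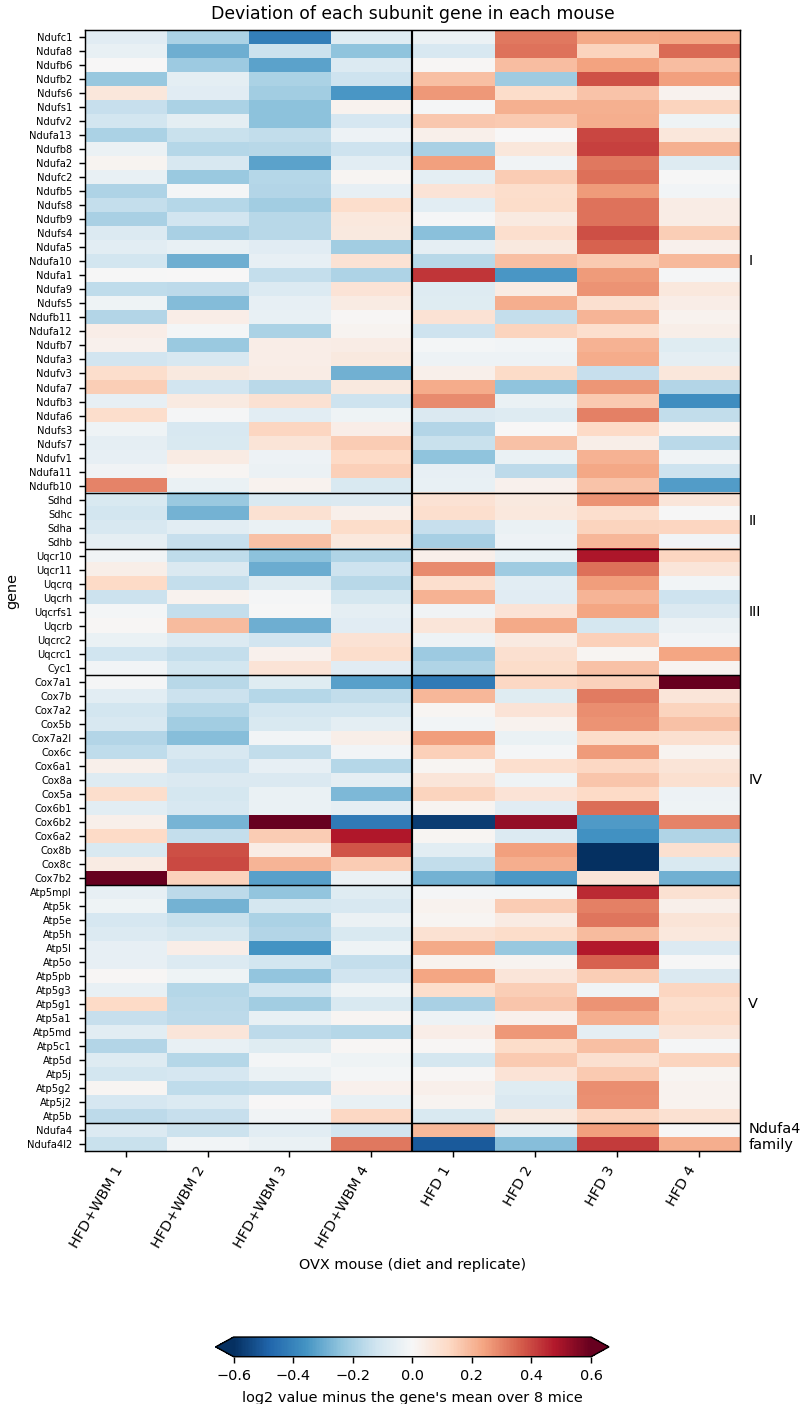
Log2 value of each gene in each mouse minus that gene's mean over the 8 mice, by complex and, within a complex, from the lowest to the highest log2 fold change. Red is above and blue below the gene's mean, and the column of HFD replicate 3 is red for most genes but blue for several isoforms of complex IV.

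By complex, the lower values were most even in complex V. Its mean log2 value was 11.14 ± 0.04 in HFD+WBM livers and 11.31 ± 0.09 in HFD livers (SD, n = 4 each). The mean of complex III was 10.72 ± 0.03 in HFD+WBM livers and 10.85 ± 0.08 in HFD livers, and that of complex I was 10.01 ± 0.04 in HFD+WBM livers and 10.16 ± 0.11 in HFD livers. In these 3 complexes every HFD+WBM mouse lay below every HFD mouse by this mean. The means overlapped in complex II, with 11.25 ± 0.10 in HFD+WBM livers and 11.35 ± 0.09 in HFD livers, and in complex IV, with 9.20 ± 0.04 in HFD+WBM livers and 9.23 ± 0.06 in HFD livers, where the mean includes tissue isoforms with estimates above 0. The separation depended on the summary: by the median deviation over genes, complexes III, IV and V were separate, complex III narrowly, and complexes I and II overlapped.

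**Figure D3:**
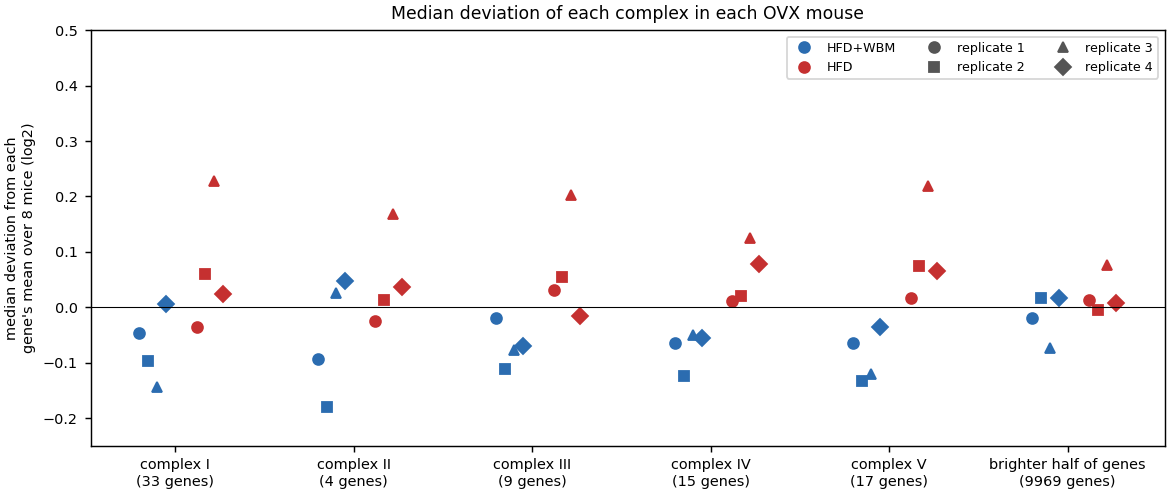
Median deviation of the genes of each complex from their means over 8 mice (log2), for each OVX mouse (HFD+WBM blue, HFD red, marker shape by replicate number), with the brighter 50% of all genes for comparison. HFD replicate 3 is highest in every complex, and by these medians all HFD+WBM mice lie below all HFD mice in complexes III, IV and V, with overlap in complexes I and II.

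In complex I, 27 of 33 genes had estimates below 0, with a median of -0.18, which became -0.10 without HFD replicate 3. Ndufc1, a small accessory subunit of the membrane arm, had log2 values of 10.57, 10.45, 10.23 and 10.57 in HFD+WBM mice, against 10.61, 10.96, 10.87 and 10.88 in HFD mice. HFD replicate 1 lay just above the highest HFD+WBM mouse and the other 3 HFD mice lay well above it. The log2 fold change was -0.37 ± 0.15 (standard error), a level 1.29-fold lower, with limma p = 0.035 before adjustment and adjusted p = 0.40, exact permutation p = 0.029. This is the smallest two-sided permutation p that 4 mice against 4 can give, and every gene whose groups do not overlap has it. Here and below, such a p beside separate groups only restates the separation. A dimmer probe set of the same gene gave -0.28.
Ndufa8, an accessory subunit on the intermembrane space side, had 11.07, 10.82, 10.98 and 10.87 in HFD+WBM mice, against 11.01, 11.44, 11.25 and 11.45 in HFD mice. HFD replicate 1 lay among the HFD+WBM mice, so the groups overlapped. The log2 fold change was -0.35 ± 0.15 (standard error), a level 1.28-fold lower, with limma p = 0.046 before adjustment and adjusted p = 0.42, exact permutation p = 0.057. With 1 mouse fewer most of these calls were lost, while the estimates stayed at -0.45 to -0.30 for both genes. Ndufc1 no longer had p under 0.05 when HFD+WBM replicate 2 or 3 or HFD replicate 2, 3 or 4 was left out, nor did Ndufa8 without HFD+WBM replicate 2, 3 or 4 or HFD replicate 2, 3 or 4.

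The core subunits of complex I, which hold the flavin and the iron-sulphur clusters, had estimates on both sides of 0. Of 6 measured nuclear core genes, 3 had estimates below 0 and 3 above, with a median of -0.09, and of 27 accessory genes 24 were below 0 with a median of -0.18. The difference between these sets was not tested. Ndufs1, the largest iron-sulphur subunit, had 10.65, 10.60, 10.54 and 10.81 in HFD+WBM mice, against 10.78, 11.00, 11.00 and 10.92 in HFD mice. Only HFD+WBM replicate 4 and HFD replicate 1 crossed, and the log2 fold change was -0.28 ± 0.14 (standard error; limma adjusted p = 0.46, exact permutation p = 0.057). Ndufv1, which binds NADH and the flavin, had 10.76, 10.86, 10.78 and 10.93 in HFD+WBM mice, against 10.57, 10.77, 11.02 and 10.79 in HFD mice. The groups overlapped, and the log2 fold change was 0.05 (95% interval -0.28 to 0.37). Ndufv2, an iron-sulphur subunit beside it, averaged 9.94 ± 0.08 in HFD+WBM livers and 10.20 ± 0.11 in HFD livers (SD, n = 4 each). Of the accessory subunits, Ndufa13 averaged 9.72 ± 0.07 in HFD+WBM livers and 9.97 ± 0.18 in HFD livers, while Ndufb6 averaged 9.95 ± 0.14 in HFD+WBM livers and 10.26 ± 0.10 in HFD livers (SD, n = 4 each). Ndufv2, Ndufa13 and Ndufb6 were lower in every HFD+WBM mouse, and the exact permutation p = 0.029 of each follows from that separation.

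The promoters of the 2 complex I genes that passed are shown for the motif matches they hold, as are those of Sdhd and Atp5h below, all chosen after their values were seen. Sequences are from RefSeq (GRCm38.p6, 5′ to 3′ on the gene's strand), and 66 of the 80 genes had a window of 250 bases before to 50 after the start. Capitals mark GCATGCGC, a core of the site of the transcription factor NRF1, in the 250 bases before the start of Ndufa8 (chr2:36049339-36049588, minus strand), and AAGATGGC, a core of the YY1 site, in a stretch of 30 bases just after the start of Ndufc1 (chr3:51408915-51408944, minus strand).
Ndufa8: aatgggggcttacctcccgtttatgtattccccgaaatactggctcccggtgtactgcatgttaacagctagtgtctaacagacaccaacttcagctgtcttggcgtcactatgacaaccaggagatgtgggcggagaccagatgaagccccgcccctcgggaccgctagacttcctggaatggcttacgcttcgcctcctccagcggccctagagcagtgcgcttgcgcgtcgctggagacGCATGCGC
Ndufc1: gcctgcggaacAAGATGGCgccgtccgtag
Searched on both strands, the NRF1 letters were in the windows of 10 of the 66 genes (15.2%), against 2.8% of all 27025 windows. Those are 1 for each RefSeq gene, whether or not it is among the 19938 genes tested or expressed in liver. The YY1 letters were in 9 (13.6%), against 2.88% of all windows. The letters CCGGAAG, a core of sites of the ETS family to which GABPA belongs, were in 16 (24.2%), against 9.12%. On the strand of the start site alone, TATAAA was in 3 (4.55%), against 8.88%. Of the 17 genes lower in every mouse, 15 had a window. The ETS letters were in 6 of these (40%; Atp5e, Atp5h, Atp5k, Cox8a, Ndufb6 and Sdhd), the NRF1 letters in 1 (6.67%), the YY1 letters in 1 (6.67%) and TATAAA in 0. A match describes the sequence and does not measure binding, and no group of genes was compared by a test.

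Complex II, succinate dehydrogenase, is also an enzyme of the citric acid cycle and is encoded wholly in the nucleus. Sdhd, a membrane anchor subunit, had 10.72, 10.59, 10.72 and 10.72 in HFD+WBM mice, against 10.89, 10.87, 11.08 and 10.88 in HFD mice. Every HFD+WBM mouse was below every HFD mouse, and the log2 fold change was -0.24 ± 0.13 (standard error; limma adjusted p = 0.48, exact permutation p = 0.029). The other anchor, Sdhc, had -0.13 ± 0.14. The median of the 4 genes was -0.09. It was -0.029 after quantile normalization, -0.046 without HFD+WBM replicate 2 and -0.064 without HFD replicate 3. The catalytic head had estimates near 0, with -0.04 (95% interval -0.35 to 0.26) for the flavoprotein Sdha and 0.02 (95% interval -0.31 to 0.36) for the iron-sulphur protein Sdhb, and for both the groups overlapped. The 250 bases before the start of Sdhd (chr9:50603850-50604099, minus strand, GRCm38.p6) hold the ETS letters on the opposite strand, and the capitals mark them as they read on the gene's strand.
Sdhd: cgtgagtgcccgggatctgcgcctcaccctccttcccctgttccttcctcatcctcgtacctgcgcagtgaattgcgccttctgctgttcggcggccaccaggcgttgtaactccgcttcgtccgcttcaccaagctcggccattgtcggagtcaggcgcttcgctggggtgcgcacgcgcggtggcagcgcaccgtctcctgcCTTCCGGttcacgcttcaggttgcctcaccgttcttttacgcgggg

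Complex III had 9 of 9 estimates below 0, with a median of -0.11 (-0.061 after quantile normalization and -0.073 without HFD replicate 3). None of its genes had limma p under 0.05 before adjustment, where 6.9% of all genes were lower by that rule. None was lower in every mouse, against 5.02% of all genes. The lowest estimate was that of Uqcr10, a small subunit, which had 9.83, 9.70, 9.61 and 9.67 in HFD+WBM mice, against 9.88, 9.81, 10.34 and 9.98 in HFD mice. HFD replicate 3 was far above the rest, HFD replicate 2 lay just below the highest HFD+WBM mouse, and the log2 fold change was -0.30 ± 0.16 (standard error; limma adjusted p = 0.48, exact permutation p = 0.057). Uqcr11, another small subunit, had -0.24 ± 0.17. The subunits that carry the electrons had estimates nearer 0, with -0.11 ± 0.14 for Uqcrfs1, the Rieske iron-sulphur protein, and -0.06 ± 0.14 for Cyc1, cytochrome c1. The core protein Uqcrc1 had -0.07 ± 0.15.

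Complex IV, cytochrome c oxidase, divided by isoform. All 9 genes used in most tissues had estimates below 0, with a median of -0.20, and 5 of the 6 genes for isoforms of muscle, brown fat or testis had estimates above 0. Cox7a2, the isoform of most tissues including liver, had 10.85, 10.79, 10.85 and 10.85 in HFD+WBM mice, against 10.97, 11.04, 11.24 and 11.09 in HFD mice. The HFD+WBM mice lay close together and below every HFD mouse, with a log2 fold change of -0.25 ± 0.13 (SE; limma adjusted p = 0.47, exact permutation p = 0.029). Cox5b, which binds zinc, had 12.24, 12.13, 12.25 and 12.28 in HFD+WBM mice, against 12.33, 12.36, 12.61 and 12.52 in HFD mice. Here too the groups did not overlap (-0.23 ± 0.14; limma adjusted p = 0.52, exact permutation p = 0.029). Cox6c averaged 12.07 ± 0.06 in HFD+WBM livers and 12.28 ± 0.12 in HFD livers (SD, n = 4 each), and with Cox8a (-0.16 ± 0.13, log2 fold change and standard error) it was also lower in every HFD+WBM mouse. The groups overlapped for Cox6a1 (-0.16 ± 0.13), for Cox5a (-0.15 ± 0.14) and for Cox7a2l (-0.21 ± 0.14).
Among isoforms of striated muscle and brown fat, Cox6a2 had 7.18, 6.91, 7.21 and 7.54 in HFD+WBM mice, against 7.07, 6.98, 6.69 and 6.87 in HFD mice. The groups overlapped through HFD+WBM replicate 2, and the log2 fold change of 0.30 ± 0.17 (SE; limma adjusted p = 0.50, exact permutation p = 0.086) became 0.40 without that mouse, past limma p under 0.05 before adjustment, and 0.19 without HFD+WBM replicate 4, not past it. Cox8b had 0.36 ± 0.27 and Cox7a1 -0.28 ± 0.23, with overlap. Without HFD replicate 3 the estimate of Cox8b was 0.088. That of Cox7a1 was -0.47 without HFD replicate 1, past the same threshold, and -0.090 without HFD replicate 4. Of the testis isoforms Cox8c had 0.40 ± 0.21 with overlap, 0.54 without HFD replicate 2, also past that threshold, and 0.21 without HFD replicate 3, not past it. Cox8b and Cox8c were lowest in HFD replicate 3, at 5.25 and 5.63. All 6 isoform genes lay in the less bright 50% of all genes, and no background limit was applied to them. Of 9 striated muscle markers 1 was higher with HFD+WBM, Ckm, at 6.90 ± 0.26 in HFD+WBM livers and 6.11 ± 0.67 in HFD livers (SD, n = 4 each; limma adjusted p = 0.40, exact permutation p = 0.029), and none was lower. Of all genes 4.85% were higher and 6.9% lower at limma p under 0.05 before adjustment. Of the 9 muscle markers, 7 had estimates below 0, with a median of -0.08, or -0.30 without HFD replicate 3. The summed level of that list was 2004 to 2400 in HFD+WBM livers and 1966 to 2331 in HFD livers, and the part of muscle RNA was not tested.

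**Figure D4:**
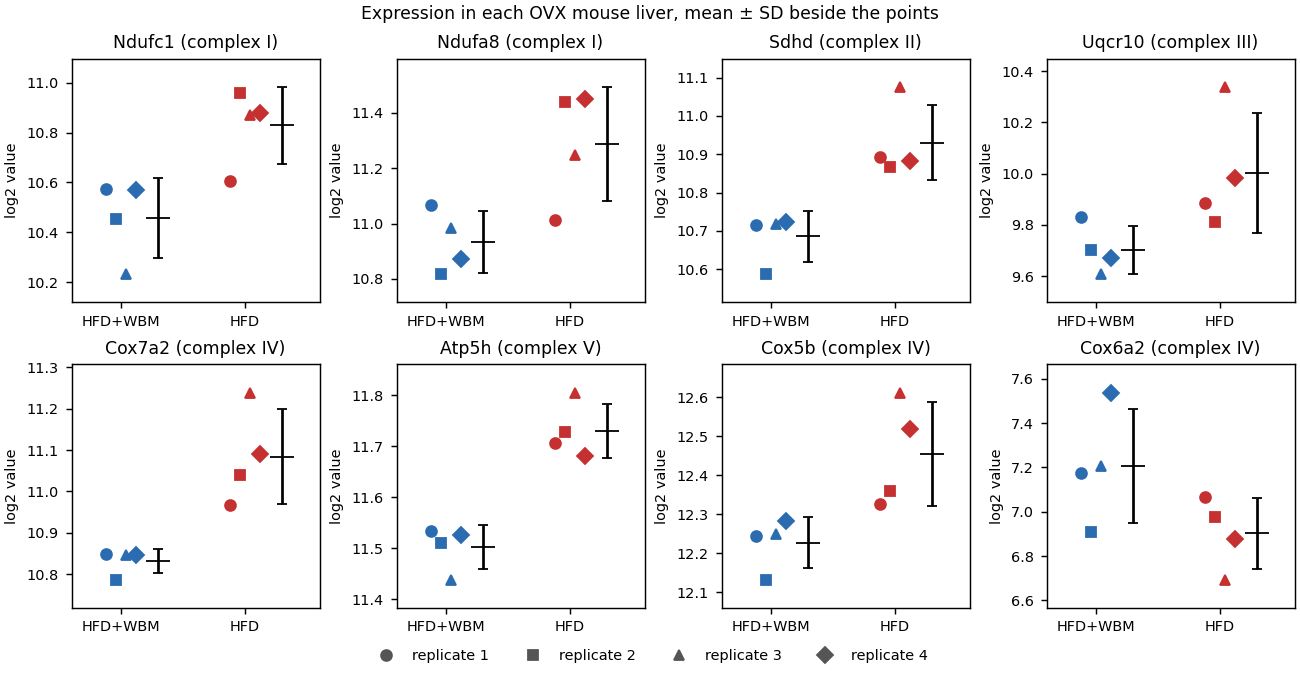
Log2 values of 8 genes in each OVX mouse (HFD+WBM blue, HFD red, shapes by replicate number), with bars for the mean and SD of 4 mice; each axis has its own range and does not start at 0. The groups are separate for Ndufc1, Sdhd, Cox7a2, Atp5h and Cox5b, overlap for Ndufa8 and Uqcr10, and for Cox6a2 the HFD+WBM mean is the higher one, with overlap.

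Complex V, the ATP synthase, had 17 of 17 estimates below 0, from -0.26 to -0.10. Their median was -0.17 (-11.2%), which became -0.12 without HFD replicate 3. None passed limma p under 0.05 before adjustment, where 6.9% of all genes were lower by that rule. Of the 17, 7 were lower in every HFD+WBM mouse, against 5.02% of all genes. Atp5h, the d subunit of the stalk that holds the catalytic head in place, had 11.53, 11.51, 11.44 and 11.52 in HFD+WBM mice, against 11.71, 11.73, 11.81 and 11.68 in HFD mice. The groups were clearly apart, at a difference of -14.6%. The log2 fold change was -0.23 ± 0.13 (standard error; limma adjusted p = 0.49, exact permutation p = 0.029), and its other probe sets gave -0.16 and -0.23. The 250 bases before its start (chr11:115419920-115420169, minus strand, GRCm38.p6) hold the ETS letters on the opposite strand, in capitals.
Atp5h: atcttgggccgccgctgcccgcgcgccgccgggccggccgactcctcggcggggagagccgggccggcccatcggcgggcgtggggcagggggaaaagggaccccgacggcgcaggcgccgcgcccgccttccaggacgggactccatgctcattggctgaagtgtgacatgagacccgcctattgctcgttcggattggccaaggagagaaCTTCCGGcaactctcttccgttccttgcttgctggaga
The parts of the enzyme had similar medians, at -0.14 for the 5 genes of the F1 head, -0.17 for the 3 genes of the c ring, -0.19 for the 4 genes of the peripheral stalk and -0.20 for the 5 genes of small membrane subunits. In the head, the estimate was -0.17 ± 0.13 for the alpha subunit Atp5a1, -0.10 ± 0.14 for the catalytic beta subunit Atp5b and -0.14 ± 0.13 for the gamma subunit Atp5c1, all with overlap. Atp5g1, Atp5g2 and Atp5g3, 3 genes for the same mature c subunit, had -0.17, -0.13 and -0.18, and of these only Atp5g3 was lower in every HFD+WBM mouse. Atp5k, the e subunit, had 10.58, 10.33, 10.51 and 10.51 in HFD+WBM mice, against 10.63, 10.76, 10.91 and 10.64 in HFD mice. The groups did not overlap (-0.25 ± 0.14; limma adjusted p = 0.49, exact permutation p = 0.029). In the stalk, Atp5o, which ties it to the head, averaged 10.16 ± 0.04 in HFD+WBM livers and 10.35 ± 0.17 in HFD livers, and Atp5j averaged 12.32 ± 0.05 in HFD+WBM livers and 12.45 ± 0.07 in HFD livers (SD, n = 4 each). For Atp5e, the epsilon subunit, the averages were 9.61 ± 0.06 in HFD+WBM livers and 9.84 ± 0.14 in HFD livers, and for the small Atp5mpl 10.29 ± 0.09 in HFD+WBM livers and 10.55 ± 0.22 in HFD livers (SD, n = 4 each).

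Ndufa4, which binds to complex IV, had 12.00, 11.95, 12.02 and 11.97 in HFD+WBM mice, against 12.28, 12.03, 12.33 and 12.09 in HFD mice. HFD replicate 2 lay just above the highest HFD+WBM mouse, and the log2 fold change was -0.19 ± 0.14 (standard error; limma adjusted p = 0.57, exact permutation p = 0.029). Its relative Ndufa4l2, a gene induced by hypoxia, had 0.06 ± 0.22, with overlap. Many of these genes have near-identical copies elsewhere in the genome, and signal from such copies cannot be told apart on the array. Of the 16 members with more than 1 probe set, 2 (Ndufa11 and Ndufs3) had probe sets of both signs. All 24 probe sets that did not stand for their gene had estimates below 0, against 49.3% of all genes. None passed p under 0.05, where 6.9% of all genes were lower and 4.85% higher. They read the same 16 genes again, so they are not separate observations.

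Several other groups of nuclear mitochondrial genes also had medians below 0, while regulators had a median near 0. The lists were chosen with earlier results known and are given by their counts at limma p under 0.05 before adjustment, beside the 6.9% lower and 4.85% higher of all genes. Of 12 chain and related genes whose symbols the rule does not reach, 1 was lower and 1 higher. In this list 7 estimates were below 0 and the median was -0.07, nearer 0 than that of the members. Cycs, the cytochrome c that carries electrons between complexes III and IV, was lower, with 10.82 ± 0.13 in HFD+WBM livers and 11.17 ± 0.15 in HFD livers (SD, n = 4 each; log2 fold change -0.35 ± 0.15; limma adjusted p = 0.41, exact permutation p = 0.029). Cyct, the testis form, was higher at low signal, with 5.01 ± 0.17 in HFD+WBM livers and 4.29 ± 0.42 in HFD livers (SD, n = 4 each; limma adjusted p = 0.37, exact permutation p = 0.029). Cox4i1, a complex IV subunit, had -0.06 ± 0.13.
Of 43 assembly factors, which build the complexes without remaining in them, 6 were lower and none higher, with a median of -0.27. Sdhaf1, for complex II, averaged 8.44 ± 0.08 in HFD+WBM livers and 8.91 ± 0.27 in HFD livers, and Cox18, for complex IV, averaged 8.79 ± 0.06 in HFD+WBM livers and 9.17 ± 0.11 in HFD livers (SD, n = 4 each). Both were lower in every HFD+WBM mouse. Of 16 genes of pyruvate dehydrogenase and the citric acid cycle, 2 were lower and none higher, with a median of -0.21. They were Pdhb, a pyruvate dehydrogenase subunit, with 10.41 ± 0.24 in HFD+WBM livers and 11.00 ± 0.05 in HFD livers, and Cs, citrate synthase, with 10.73 ± 0.16 in HFD+WBM livers and 11.28 ± 0.25 in HFD livers (SD, n = 4 each). Of 77 mitochondrial ribosomal proteins 7 were lower and none higher, with a median of -0.17, and Mrpl36 (-0.49 ± 0.16) and Mrpl34 (-0.40 ± 0.15) had the smallest p.
Only 2 mitochondrially encoded subunits had a row of their own. COX2 had 0.14 ± 0.14 and ND3 had -0.04 ± 0.17, both with overlap. Of 17 regulators of mitochondrial gene expression, 0 passed limma p under 0.05 in either direction before adjustment, and 8 had estimates below 0, with a median of 0.02. Ppargc1a, a coactivator that raises respiratory chain transcription, averaged 9.02 ± 0.22 in HFD+WBM livers and 8.63 ± 0.51 in HFD livers (SD, n = 4 each), and the log2 fold change was 0.38 ± 0.25. Tfam, which binds mitochondrial DNA, had 0.10 ± 0.18. With standard errors of this size, a shift as small as that of the subunits was not detectable in a single regulator. Ssbp1 (-0.32 ± 0.15) and Polg (0.32 ± 0.18), which act in mitochondrial DNA replication, had the smallest p, and both overlapped.

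**Figure D5:**
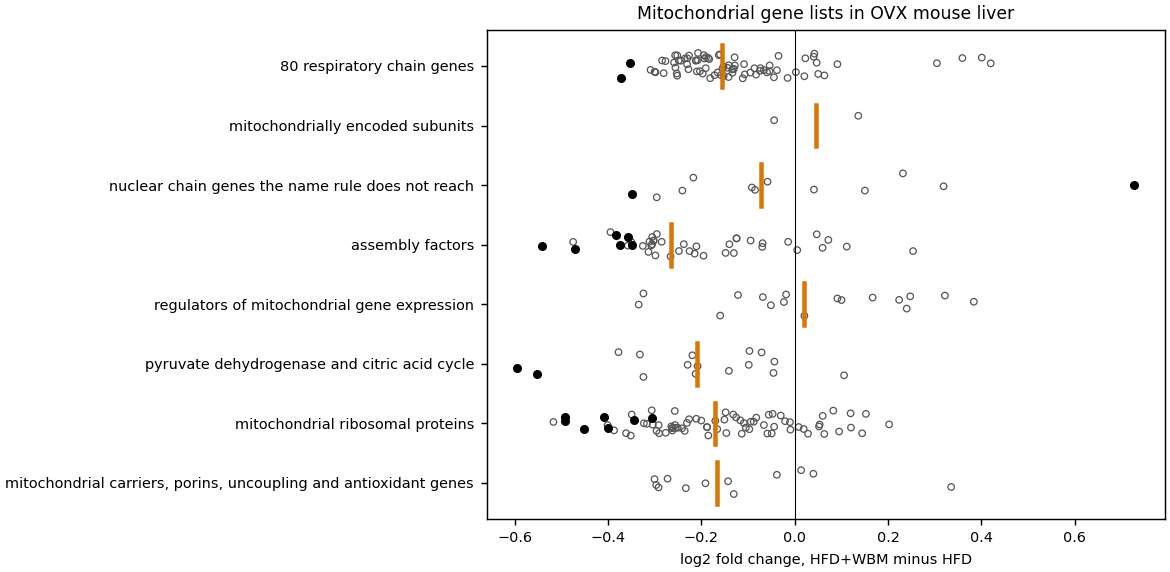
Log2 fold change, HFD+WBM minus HFD, of each gene in the respiratory chain and in 7 other lists of mitochondrial genes (4 OVX mice per diet). Filled points have p under 0.05 before adjustment (limma) and orange bars are medians, which lie at -0.16 for the 80 respiratory chain genes, -0.27 for assembly factors and 0.02 for regulators.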

How the data were processed

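Arrays (Affymetrix Mouse Gene 1.0 ST) of 4 OVX HFD+WBM and 4 OVX HFD livers were grouped by their labels, which also number the replicates. The deposited values are log2 values that the authors made with IterPLIER (Affymetrix Power Tools 1.8.6, also named by the submitters), after correcting background and normalizing. No source used here states an offset or a build. Of 28944 probe sets, 21789 carry a single gene name, 1621 carry several and 5534 carry none in the annotation.

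Limma 3.58.1 (R 4.3.3) was fitted to all 19938 genes with a diet term, with Benjamini-Hochberg adjustment over them. The ± of an estimate is its standard error, and permutation tests went through all 70 divisions of the mice. The members and lists were chosen with earlier results of these data known. Named members (33) were the 2 with the smallest p per complex, those past p under 0.05 and 26 subunits fixed by role. Members lower in every mouse were named after their values were seen. Scripts were tested on simulated data. Alternatives were other scalings, offsets of 16 and 64, the brightest 50% of genes, all probe sets, array weights, other variance models, an equal-variance t-test, a replicate block and leaving out each mouse. With 8 arrays, their number limits the precision.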

Additional observations from a re-analysis of the deposited data

Results flagged for a closer look

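Of 66 groups of 4 mice examined (33 named genes in each diet), 3 held a mouse far from the rest of its group, where chance flags about 5% of groups. Sdhd was 10.59 in HFD+WBM replicate 2, while the remaining HFD+WBM mice were at 10.72. The same gene was 11.08 in HFD replicate 3, while the remaining HFD mice were at 10.87 to 10.89. Cox7a2 was 10.79 in HFD+WBM replicate 2, while the remaining HFD+WBM mice were at 10.85.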

How the results depend on the processing

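The median log2 fold change over the 80 genes stayed between -0.17 and -0.11 in all alternatives. The medians of the 5 complexes kept their sign, but quantile normalization brought complex II to -0.029 and complex III to -0.061. Centring each array on the brightest 50% of genes (a setting chosen after seeing the data) brought complex II to -0.059. The report gives the mice that moved complexes I, II, III and V. The number of members lower at p under 0.05 was 2 with all mice (2.5%, against 6.9% of all genes). It was 1 with quantile normalization (6.80% of all genes), 5 with an offset of 64 before the log (8.53%), 3 of 73 among the brightest 50% of genes (12.0%), 1 with the centring just named (6.01%), 13 with a limma prior that changes with signal (8.24%) and 22 with an equal-variance t-test (7.66%). Leaving out 1 mouse gave 0 to 5 lower, 0 without HFD+WBM replicate 2 or 3 or HFD replicate 3 or 4 (4.53% to 6.42% of all genes) and 5 without HFD replicate 1 (6.85%), and 0 to 1 higher. No alternative gave a member with an adjusted p under 0.05 or a 2-fold change. With the replicate block 0 members were lower (5.06% of all genes), but same-numbered mice did not deviate together (correlations -0.12 to -0.02). No sign of pairing by number was seen, though these correlations cannot exclude it. The paper describes pair feeding of the diets, and the labels do not say whether the numbers follow it. Sdha was 0.026 with quantile normalization. Without 1 mouse Sdhb was -0.039 to 0.093, Ndufa4l2 -0.094 to 0.21, Ndufv1 -0.026 to 0.12 and Uqcrc1 -0.15 to 0.0026. The cause of these changes was not tested.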

Other observations

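Of 12 measured mitochondrial carriers, porins and uncoupling or antioxidant genes, 0 passed p under 0.05 before adjustment by limma in either direction. Of all genes 6.9% were lower and 4.85% higher by that rule. Of the 12, 9 had estimates below 0 and the median log2 fold change was -0.17. Slc25a5, the carrier that exchanges ADP and ATP across the inner membrane, averaged 12.10 ± 0.08 in HFD+WBM livers and 12.39 ± 0.09 in HFD livers (SD, n = 4 each; limma adjusted p = 0.43, exact permutation p = 0.029). Vdac3, a porin of the outer membrane, averaged 10.73 ± 0.13 in HFD+WBM livers and 11.03 ± 0.07 in HFD livers (SD, n = 4 each; limma adjusted p = 0.43, exact permutation p = 0.029). For both genes every HFD+WBM mouse lay below every HFD mouse.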
